A study of Mus musculus with 12 samples.

Results

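A group of 31 transcripts was chosen for a low level in elongated spermatids (ES), the late haploid germ cells of the testis, against round spermatids (RS), their precursors. Members were taken by 1 rule from wild-type libraries alone. A contig, which is 1 reference transcript to which reads were assigned, had to hold at least 100 counts summed over the 3 RS wt/wt libraries. Its log2 ratio of mean ES wt/wt to mean RS wt/wt level had to be at or under -2.5, with levels in CPM (counts per 1000000 counts of the library) and 1 added to both means. The rule kept 31 of 5105 transcript contigs that held enough RS wt/wt counts, of 11517 transcript contigs and 12114 contigs in all. Members were thus selected on the measured wt/wt ratio, and the wt/wt values below describe that choice and support nothing. The dcat/dcat libraries, which the rule did not use, gave the tests. They were not fully independent of the choice: replicates with the same number deviated together across genotypes in RS (correlations of 0.598 to 0.846).

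Nanopore direct RNA sequencing, which reads native poly(A) RNA without copying it, gave the transcript counts. Adult mice were either wt/wt at Tent5c or dcat/dcat, an allele whose TENT5C protein, an enzyme that adds poly(A) outside the canonical machinery, has no catalytic activity. The 4 groups were RS wt/wt, ES wt/wt, RS dcat/dcat and ES dcat/dcat, each with 3 libraries, and each library held RNA pooled from 3 mice. Both stages were sorted by flow cytometry from the testis, so in these bulk pools fewer cells of a type and less RNA per cell cannot be told apart.

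Transcription stops early in spermatid elongation, so an mRNA that a later spermatid holds was made before that point. Some messages, such as those of protamines and outer dense fibres, are stored with their poly(A) tails and translated late, while others, including many left from meiosis, are degraded on the way. TENT5C lengthens poly(A) tails of particular messages in this period. Among the members are genes of meiotic proteins, acrosome and flagellum proteins, nuclear regulators, enzymes and transporters, and genes known here by a clone or model name alone.

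Library totals ran from 337287 counts in ES wt/wt 3 to 1359427 in RS wt/wt 3. A floor of 3 counts stood at 2.21 to 8.89 CPM, for counting error only, and a member averaged 35.97 to 91.4 counts in an RS library but 2.16 to 10.9 in an ES library. The Tent5c contig, which holds a mutated codon and not a deletion and so checks no label here, lay between 313 and 511 CPM in RS and between 657 and 924 CPM in ES. The labels were set against stage markers: 14 genes of elongated spermatids summed to 29735 to 58021 CPM in RS and to 190422 to 223407 CPM in ES. The 14 round spermatid genes, Zpbp2 among them, were close in both stages, at 3283 to 3629 CPM in RS and 2733 to 3159 CPM in ES. Markers of spermatocytes, of which 9 of 16 genes had a contig, summed to 1464 to 1759 CPM in RS and 568 to 732 CPM in ES. Leydig cell markers (6 of 12 genes) went from 19.0 to 56.6 CPM in RS to 193 to 842 CPM in ES, and Sertoli cell markers (7 of 14 genes) from 10.9 to 62.8 to 206 to 442 CPM. None of those genes was at 0 in a whole group, and none of the 8 peritubular and endothelial markers had a contig. The 10 most abundant contigs took 5.40% to 7.97% of an RS library and 19.0% to 22.4% of an ES library, which lowers the CPM of every other contig in ES. The part of this shift and of other cell types in the results below was not tested, except where 2 scalings are given.

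One property of the libraries has to come first. In 5 of the 12 libraries (RS wt/wt 1, RS dcat/dcat 1, ES wt/wt 1, ES wt/wt 3 and ES dcat/dcat 1), 22 contigs stood at no more than 0.25 times the lowest level seen in the other 7. The members Gm26657 (ENSMUST00000181745), Dkkl1 (ENSMUST00000209466) and Morc2b (ENSMUST00000131954) were among them, with 0 or 1 count in each of the 5. In wt/wt, 1 of 3 RS libraries but 2 of 3 ES libraries belonged to these 5, so more of the ES than of the RS mean of such contigs rests on libraries that lack them. In dcat/dcat 1 library of each stage belonged to them. The set was read from the counts and is not a batch given by the labels, and its cause was not tested. Results are therefore given with and without these 3 members.

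The split was one of contigs and not of genes. Dkkl1 encodes a secreted protein of the acrosome, and its member contig is a 748-base form at chr7:45207625-45211823 (GRCm38, minus strand). It had 0, 44 and 114 counts in RS dcat/dcat 1, 2 and 3 and 0, 11 and 15 in ES dcat/dcat, while the longer Dkkl1 contig ENSMUST00000033057 had 1010, 707 and 1112 counts and then 410, 223 and 293. Morc2b, a MORC-family ATPase gene needed for meiosis, showed the same contrast. Its member contig is a single-exon form at chr17:33135643-33139499 (minus strand) with 1, 39 and 69 counts in RS dcat/dcat and 0, 5 and 12 in ES dcat/dcat, and its 2-exon contig ENSMUST00000053896 had 236, 125 and 155 and then 36, 30 and 49. Gm26657, a single-exon gene model at chr4:56740070-56741377 (plus strand), had no other contig, with 1, 81 and 151 counts and then 0, 9 and 19. In dcat/dcat the members were at 0 or 1 count in the libraries numbered 1, in which the sister contigs of Dkkl1 and Morc2b were still counted.

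**Figure D1:**
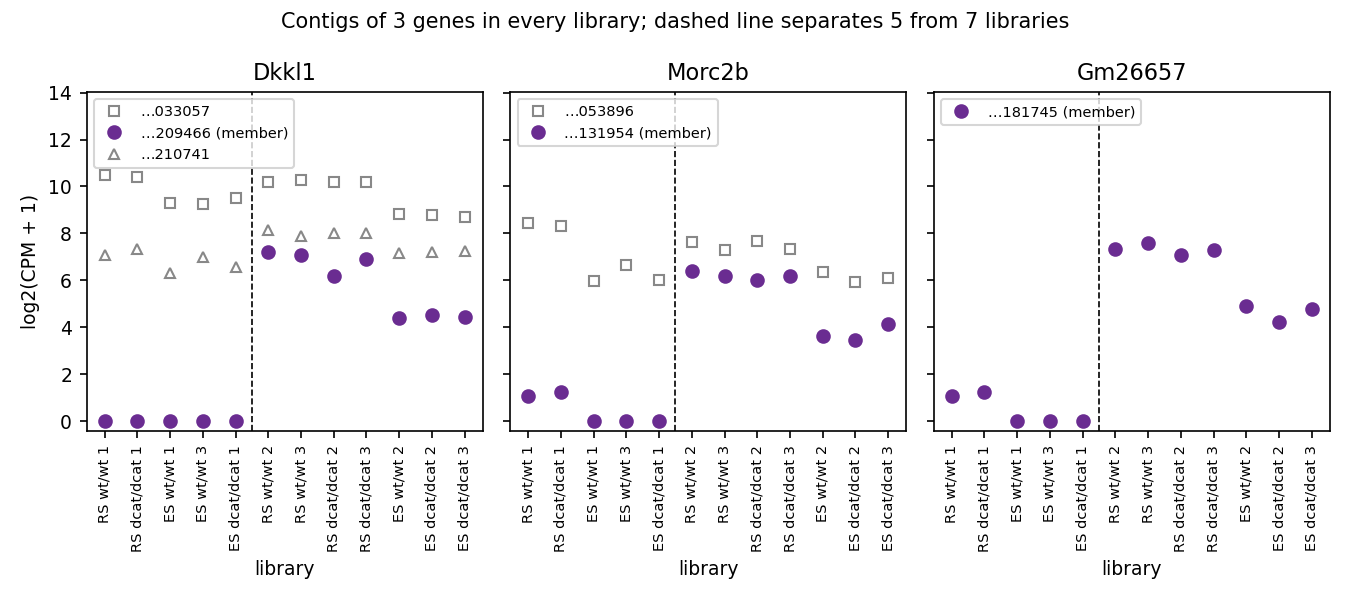
Level of every tested contig of Dkkl1, Morc2b and Gm26657 in the 12 libraries, as log2(CPM + 1), with the 5 libraries that lack the member contig left of the dashed line and the other 7 right of it. Filled circles are members and open symbols are other contigs of the same gene, and the members sit at 0 or 1 count on the left while every open symbol stays well above them there.

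The members belonged to 27 named genes, and Zpbp2, Dnaic2 and Dcaf8 gave 2 contigs each. One contig (ENSMUST00000238485) was not found in the GENCODE vM21 annotation and has no symbol here. All 30 others were annotated as protein-coding transcripts, against 91.6% of 5018 other annotated contigs with enough counts. Members had a median length of 2252 bases, 8.5 exons, a 3' UTR of 550.5 bases and a GC content of 47.9%, and the other contigs 1969.5 bases, 7 exons, 472.5 bases and 49.97%. Chromosome 11 held 5 members (16.7%, against 8.85% of the others), which came from Zpbp2 and Dnaic2 with 2 contigs each and from Pcyt2. Chromosomes X and Y held 0 (1.32% and 0.478% of the others). Gm3417 and Gm3685 belong to multi-copy families: transcripts of 2 and 21 other genes matched them at 95% identity or more over at least 80% of their length, so reads may be split among copies and their values are uncertain.

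Promoters were read for 19 members' genes with a RefSeq window within 300 bases of the member's annotated start (RefSeq, GRCm38.p6). The 250 bases before the start were searched on both strands for TGACGTCA, the palindromic cyclic AMP response element bound by CREM, for GTTGCCA, a half-site of RFX factors, and for TAACNG, the core bound by MYB factors such as the meiotic regulator MYBL1. TGACGTCA stood in 0 of 19 windows and in 1.55% of all 32851 promoters, GTTGCCA in 1 of 19 (Gm3685) against 3.66%, and TAACNG in 6 of 19 (Inafm2, Morc2b, Nol8, Pfkm, Rsrc1 and Spdya) against 19.8%. A match describes letters only and says nothing of binding. The median GC content of the windows was 57.2%, and that of all promoters 52.4%. The windows of 4 genes that recur below are shown because they span the meiotic, kinetochore and acrosome members, from 5' to 3' on the gene's strand, with matches of the searched letters in capitals. Spdya and Morc2b have a TAACNG match, and Cenpu and Zpbp2 have no match of any of the 3.
Spdya promoter (chr17:71551811-71552060, plus strand): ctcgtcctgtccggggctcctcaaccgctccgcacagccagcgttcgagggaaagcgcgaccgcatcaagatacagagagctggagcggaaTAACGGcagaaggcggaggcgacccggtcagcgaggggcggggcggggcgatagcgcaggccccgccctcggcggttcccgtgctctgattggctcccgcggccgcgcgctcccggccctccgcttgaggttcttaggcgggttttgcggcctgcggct
Morc2b promoter (chr17:33139684-33139933, minus strand): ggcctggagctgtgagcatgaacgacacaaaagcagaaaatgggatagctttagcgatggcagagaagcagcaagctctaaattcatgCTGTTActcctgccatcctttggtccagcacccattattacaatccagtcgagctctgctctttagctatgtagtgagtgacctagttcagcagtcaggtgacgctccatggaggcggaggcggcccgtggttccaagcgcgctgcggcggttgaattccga
Cenpu promoter (chr8:46551819-46552068, plus strand): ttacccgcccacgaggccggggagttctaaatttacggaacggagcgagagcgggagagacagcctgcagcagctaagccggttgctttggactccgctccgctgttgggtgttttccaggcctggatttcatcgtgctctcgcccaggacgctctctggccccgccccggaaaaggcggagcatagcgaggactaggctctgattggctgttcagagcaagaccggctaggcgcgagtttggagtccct
Zpbp2 promoter (chr11:98550847-98551096, plus strand): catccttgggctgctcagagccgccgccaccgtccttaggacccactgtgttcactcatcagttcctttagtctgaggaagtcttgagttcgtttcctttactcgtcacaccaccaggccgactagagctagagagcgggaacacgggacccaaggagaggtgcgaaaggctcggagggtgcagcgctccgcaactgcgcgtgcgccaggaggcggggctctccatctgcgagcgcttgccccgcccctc

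In the wt/wt libraries that chose them, members stood at a median log2 ratio of -2.65 (range -4.05 to -2.505), against -1.09 over all 5105 contigs. Levels in ES wt/wt were 14.8% of those in RS wt/wt for the median member (range 4.07% to 16.7%). Few molecules carry this: the 31 members held 6132 counts in the 3 RS wt/wt libraries and 506 in the 3 ES wt/wt libraries. In the shallow ES wt/wt 3 library 8 members had 0 counts, where 0 allows a level of up to 8.89 CPM, and 3 and 1 had 0 in ES wt/wt 1 and 2. No member had 0 counts in all 3 ES wt/wt libraries, and 22 of 31 had at least 1 count in every ES library of both genotypes.

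The threshold cut a continuous range. Just inside it were Slco3a1 (-2.507), an organic anion transporter gene, the unnamed contig (-2.505) and the Dnaic2 contig ENSMUST00000069325 (-2.505). Just outside were Dydc1 (-2.496), the zinc finger gene Zbtb5 (-2.479) and Ewsr1 (-2.475), which encodes an RNA-binding protein. The list was not stable: leaving out 1 wt/wt library gave 14 to 70 contigs that kept 10 to 24 of the 31, and TMM-scaled CPM, which correct for a library's composition, gave 6.

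Applied to the dcat/dcat libraries, the same ratio was less extreme. Its median over members was -1.96 (range -2.64 to -0.98), against -1.03 over the 5105 contigs. In level, the median member in ES dcat/dcat stood at 23.9% of RS dcat/dcat (range 14.9% to 48.8%), and the median of the 5105 contigs at 48.1%. Only 4 of 31 members (12.9%) were at or under -2.5 there, against 0.646% of the 5105 contigs: Gm26657, the Zpbp2 contig ENSMUST00000017339, the Dcaf8 contig ENSMUST00000192704 and the Dnaic2 contig ENSMUST00000092469. Of these, Gm26657 is one of the 3 contigs missing from 5 libraries. The rule run on dcat/dcat in full gave 27 contigs, of which 3 were members, 9.68% of the members and 11.1% of that list. The members are therefore called by the rule and not as lost transcripts.

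**Figure D2:**
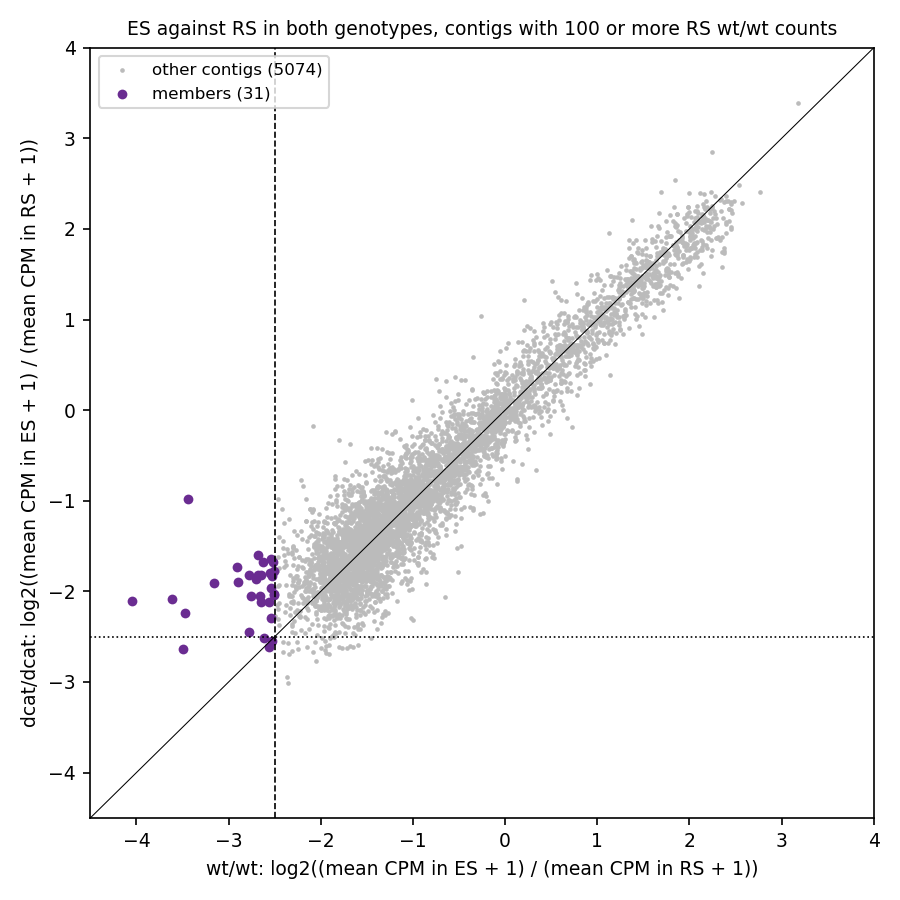
Log2 ratio of ES to RS level (mean CPM + 1) in wt/wt on the x axis and in dcat/dcat on the y axis, for 5105 contigs with at least 100 RS wt/wt counts. The 31 members are dark points left of the dashed threshold at -2.5, the dotted line marks the same value in dcat/dcat, and 4 members lie on or under it while 29 of 31 stand above the diagonal of equal values.

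Members were selected on extreme wt/wt ratios, so nothing about the genotype is read from the smaller ratios in dcat/dcat. Within the 7 libraries the median member ratio was -1.95 in dcat/dcat (2 libraries a stage) and -2.64 in wt/wt. Within the 5 it was -1.87 in dcat/dcat (1 library a stage) and -2.82 in wt/wt, over the 28 members with counts.

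Most members fell in ES in dcat/dcat, and more of them passed on library totals than after TMM scaling. TMM scaling set all contigs at a median log2 change of -0.17, while library totals set them at -0.85. In the edgeR quasi-likelihood test on the 6 dcat/dcat libraries with TMM scaling, 20 of 31 members (64.5%) were lower in ES and 0 were higher, at a Benjamini-Hochberg adjusted p (q) at or under 0.05. Over all 11831 contigs tested 13.6% were lower, and over the 5105 contigs with enough RS wt/wt counts 25.5%. Replicate effects shared with the wt/wt libraries that chose the members may enter this difference, which was not tested. The median change was -1.34 for members, -0.37 for those 5105 and -0.17 for all, and every member had a negative change (-2.13 to -0.38). Without the 3 split contigs, 20 of 28 were lower and the median was -1.26. With library totals 28 of 31 were lower, against 40.1% of all contigs. The share of the 5105 was not computed on that scaling, and in the fit with TMM scaling it was above the share of all contigs.

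The paper reports that cell types were isolated from the same mice, and RS and ES dcat/dcat libraries with the same number deviated together. Libraries 2 and 3 also did so across numbers, less strongly (0.252 and 0.266). A block by number may thus also take up a split of library 1 from 2 and 3, which was not tested. The test above leaves pairing by number out, as do the values of single members below unless a block is named. The test was therefore also run with that number as a blocking term. The replicate block called 30 of 31 members lower (96.8%), all but Zbtb25, with 23.1% of all contigs and 40.0% of the 5105 lower. Without a block the count rested on single libraries: it was 7 without ES dcat/dcat 2, 9 without ES dcat/dcat 3 and 9 without RS dcat/dcat 2, while the share of all contigs went from 13.6% to 7.26%, 6.09% and 8.17%. DESeq2 in place of edgeR called 11 members and 8.45% of all contigs. For DESeq2 and the fits that left out a library, the share of the 5105 was likewise not computed. Of the 20 called members, 5 stayed called in all 6 fits that left out 1 library, 13 in some and 2 in none. In 28 of 31 members every ES dcat/dcat library was below every RS dcat/dcat library, as it was in 61.3% of the 5105 contigs, and the 3 exceptions were Gm26657, Dkkl1 and Morc2b.

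**Figure D3:**
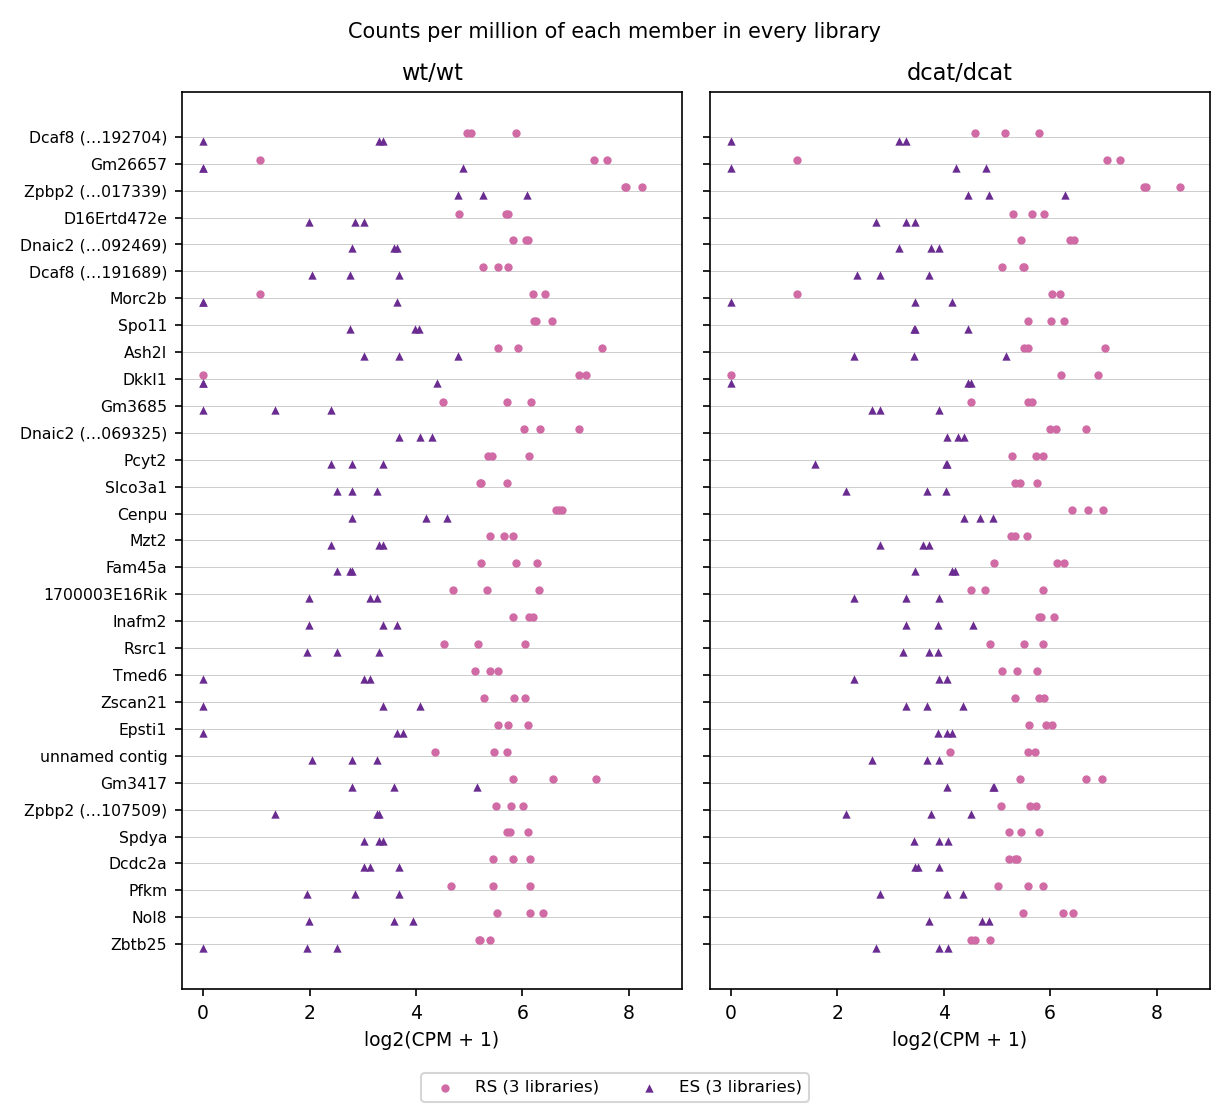
Level of each of the 31 members in every library as log2(CPM + 1), wt/wt on the left and dcat/dcat on the right, with circles for the 3 RS libraries and triangles for the 3 ES libraries. Rows run from the most to the least negative fitted change in dcat/dcat, and circles and triangles overlap in dcat/dcat only for Gm26657, Morc2b and Dkkl1, whose lowest RS library is near 0.

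Of 3 members with a role in meiosis, Spo11 and Spdya passed the test and Morc2b did not. Spo11 encodes the enzyme that makes the DNA breaks of meiotic recombination (contig ENSMUST00000109125, chr2:172979842-172993565, plus strand). It had 63.9, 76.1 and 46.9 CPM in RS dcat/dcat 1, 2 and 3 and 21.0, 9.95 and 9.80 CPM in ES dcat/dcat, and all ES libraries lay below all RS libraries. The fitted change was -1.49 ± 0.40 (SE, n = 3 against 3; edgeR q = 0.013), and 3 of the 6 fits without 1 library called it. Spdya, an activator of CDK2 that ties telomeres to the nuclear envelope in meiosis (ENSMUST00000124001, chr17:71552061-71578700, plus strand), had 54.3, 36.4 and 42.8 CPM and then 14.0, 15.9 and 9.80 CPM. Its change of -1.08 ± 0.37 (SE; edgeR q = 0.0398) was lost when any 1 of the 6 libraries was left out. Morc2b, with 1.36, 64.5 and 72.0 CPM in RS dcat/dcat and 0, 9.95 and 16.8 CPM in ES dcat/dcat, missed the threshold (-1.61 ± 0.97, SE; edgeR q = 0.212).

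Cenpu encodes a kinetochore protein bound near CENP-A, so it too belongs to dividing cells (ENSMUST00000034045, chr8:46552028-46580007, plus strand). It had 126, 104 and 84.5 CPM in RS dcat/dcat and 24.5, 19.9 and 29.4 CPM in ES dcat/dcat, with no overlap of the stages. The change was -1.38 ± 0.30 (SE; edgeR q = 0.00359) and stayed called without any 1 library. Mzt2, which encodes a part of the gamma-tubulin ring complex (ENSMUST00000117136), changed by -1.34 ± 0.38 (SE; edgeR q = 0.0179).

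Among lists of related genes, meiotic recombination and synapsis genes were lower in 4 and higher in 5 of 31 contigs tested (12.9% lower, median change -0.44), and 2 of those contigs were members, Spo11 and Spdya. Cell division genes, a list that names neither Cenpu nor Mzt2 and so held 0 members, were lower in 20 of 34 contigs (58.8%, median -0.97) and higher in 0. Against the 13.6% of all contigs, the first share was near the background.

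Acrosome and flagellum genes came next. Zpbp2 encodes a zona pellucida binding protein of the acrosome, and its member contig ENSMUST00000017339 (chr11:98551152-98558656, plus strand) was the one with most counts. RS dcat/dcat libraries held 346, 217 and 222 CPM and ES dcat/dcat libraries 77.1, 27.9 and 21.0 CPM, with library 1 highest in both stages. The change was -1.95 ± 0.43 (SE; edgeR q = 0.00456), called without any 1 library. The second Zpbp2 member (ENSMUST00000107509) had 32.6, 48.0 and 52.2 CPM and then 3.51, 21.9 and 12.6 CPM, a change of -1.14 ± 0.48 (SE; edgeR q = 0.0813). Here library 1 was lowest in both stages, the reverse of its sister contig.

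Dnaic2 encodes an intermediate chain of the outer dynein arms that drive the flagellum, and both of its contigs were members. ENSMUST00000092469 (chr11:114729148-114757889, plus strand) had 81.5, 43.0 and 86.6 CPM in RS dcat/dcat and 14.0, 7.96 and 12.6 CPM in ES dcat/dcat, a change of -1.90 ± 0.40 (SE; edgeR q = 0.00319). ENSMUST00000069325 (chr11:114727412-114757889) had 100.5, 62.8 and 67.8 CPM and then 15.8, 19.9 and 18.2 CPM, a change of -1.41 ± 0.33 (SE; edgeR q = 0.00559). Both stayed called without any 1 library.

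Both classes held contigs that went each way. Over all contigs tested, 13.6% were lower and 23.2% higher. Acrosome genes were lower in 10 and higher in 3 of 47 contigs tested (21.3% lower, median -0.28), with the 2 Zpbp2 contigs as members, though that list does not name Dkkl1. Genes of the flagellar axoneme and its transport, a list that did not match the symbol Dnaic2, were lower in 50 and higher in 19 of 171 contigs (29.2% lower, median -0.76). Condensation and tail proteins of elongated spermatids were higher in 35 of 46 contigs and lower in 1, with a median of 1.86 and no member.

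**Figure D4:**
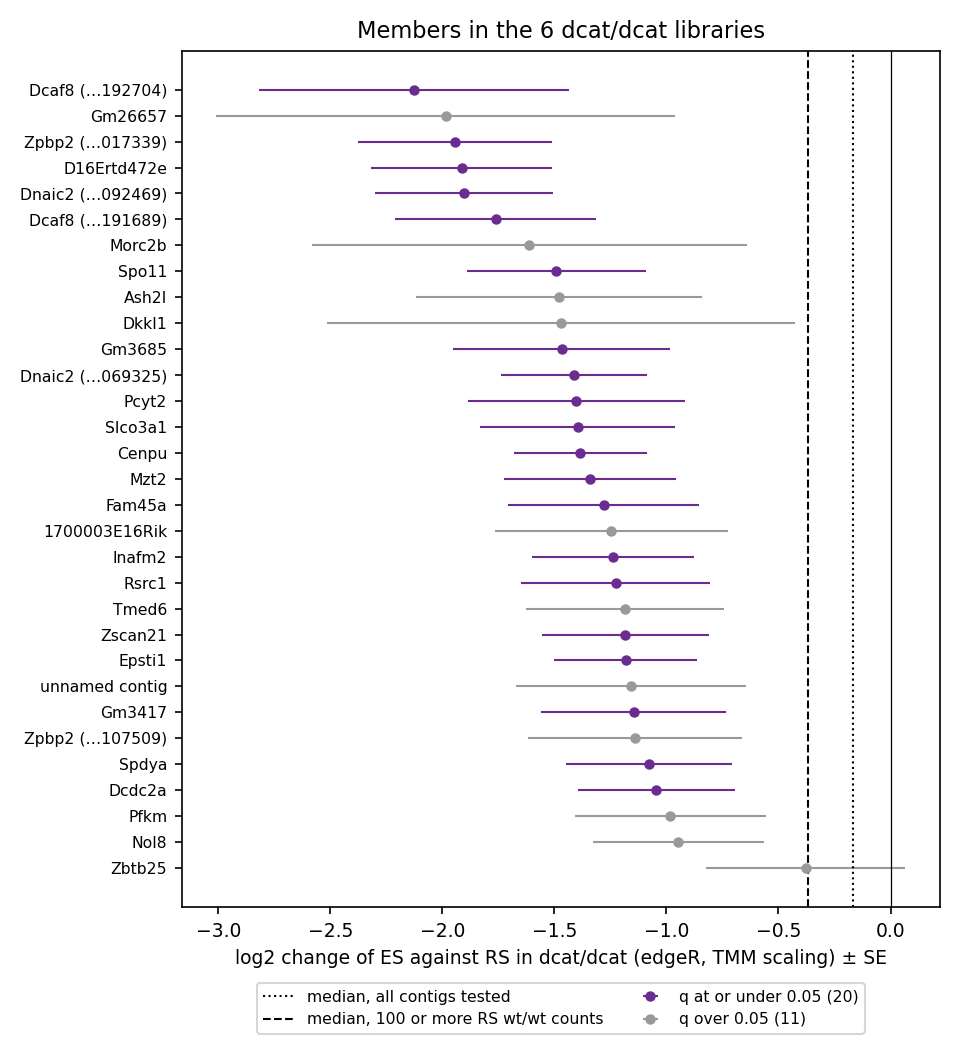
Fitted log2 change of ES against RS in the 6 dcat/dcat libraries for each member (edgeR, TMM scaling), with bars of 1 SE. Dark points are the 20 members at q at or under 0.05 and grey points the other 11, and all 31 lie left of 0 while the dotted and dashed lines mark the medians of all contigs (-0.17) and of the 5105 with enough counts (-0.37).

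Nuclear regulators were mixed. Ash2l encodes a core subunit of histone H3 lysine methyltransferase complexes (ENSMUST00000110609, chr8:25816886-25840457, minus strand). It had 130, 44.7 and 46.9 CPM in RS dcat/dcat and 35.1, 3.98 and 9.80 CPM in ES dcat/dcat, so library 1 was highest in both stages and the spread was wide. The change of -1.48 ± 0.64 (SE) missed the threshold (edgeR q = 0.0902) and passed with the replicate block (edgeR q = 2.67e-05). Nol8, a nucleolar protein gene (ENSMUST00000221142), had 85.6, 74.4 and 43.8 CPM and then 12.3, 27.9 and 25.2 CPM, and its change of -0.95 ± 0.38 (SE; edgeR q = 0.0721) did not pass either.

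The zinc finger genes Zscan21 and Zbtb25 differed in value. Zscan21 (ENSMUST00000110960) had 39.4, 57.9 and 54.2 CPM in RS dcat/dcat and 8.77, 11.9 and 19.6 CPM in ES dcat/dcat, a change of -1.18 ± 0.37 (SE; edgeR q = 0.0278). Zbtb25 (ENSMUST00000176102, chr12:76347782-76357140, minus strand) had 21.7, 28.1 and 22.9 CPM and then 14.0, 15.9 and 5.60 CPM, the least negative change of all members at -0.38 ± 0.44 (SE; edgeR q = 0.527). Zinc finger genes were lower in 26 and higher in 21 of 173 contigs (median -0.54), and chromatin regulators, which include Morc2b, in 14 and 2 of 73 (median -0.54). Both medians lay below the -0.17 of all contigs, and the shares higher were 12.1% and 2.74%, against 23.2% of all contigs. The share of zinc finger contigs that were lower was near the 13.6% of all contigs, and that of chromatin regulators was 19.2%. Splicing factors were lower in 5 and higher in 2 of 78 contigs (6.41% and 2.56%), both under the shares of all contigs.

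Dcaf8, a substrate receptor of CUL4 ubiquitin ligases, gave the most negative change (ENSMUST00000192704, chr1:172148142-172195466, plus strand). Its libraries held 54.3, 34.7 and 22.9 CPM in RS dcat/dcat and 8.77, 7.96 and 0 CPM in ES dcat/dcat, and the change was -2.13 ± 0.69 (SE; edgeR q = 0.0318), but it was called in only 2 of the 6 fits that left out 1 library. The second Dcaf8 contig (ENSMUST00000191689) had 44.8, 33.1 and 43.8 CPM and then 12.3, 5.97 and 4.20 CPM, a change of -1.76 ± 0.45 (SE; edgeR q = 0.00981). D16Ertd472e (ENSMUST00000114219, chr16:78544689-78576657, minus strand) had 58.4, 49.6 and 38.6 CPM and then 8.77, 9.95 and 5.60 CPM, a change of -1.91 ± 0.40 (SE; edgeR q = 0.00341).

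Pfkm, the muscle-type phosphofructokinase of glycolysis (ENSMUST00000163507), had 57.1, 31.4 and 46.9 CPM in RS dcat/dcat and 15.8, 5.97 and 19.6 CPM in ES dcat/dcat. Its change of -0.98 ± 0.43 (SE; edgeR q = 0.0923) did not pass. Pcyt2, an enzyme of phosphatidylethanolamine synthesis (ENSMUST00000026129), fell by 1.40 ± 0.48 on the log2 scale (SE; edgeR q = 0.041), but 1 of the 6 fits without 1 library called it and DESeq2 did not (q = 0.0503). Fam45a (ENSMUST00000025957) had 76.1, 29.8 and 68.8 CPM and then 17.5, 9.95 and 16.8 CPM, a change of -1.28 ± 0.43 (SE; edgeR q = 0.0354) that 2 of the 6 fits called.

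Other members ran within the same range. Inafm2 (ENSMUST00000149978) had 55.7, 66.2 and 54.2 CPM in RS dcat/dcat and 8.77, 13.9 and 22.4 CPM in ES dcat/dcat, a change of -1.24 ± 0.36 (SE; edgeR q = 0.0192). Dcdc2a, a doublecortin-domain gene whose protein binds microtubules (ENSMUST00000069614), had narrow groups, 40.8, 39.7 and 36.5 CPM against 10.5, 9.95 and 14.0 CPM. Its change was -1.05 ± 0.35 (SE; edgeR q = 0.0357), and it too was lost when any 1 library was left out. Gm3417 passed at -1.15 ± 0.41 (SE; edgeR q = 0.0489), though, as for Rsrc1, in only 1 of the 6 fits without 1 library. Slco3a1, Gm3685, Rsrc1 and Epsti1 passed with changes of -1.47 to -1.18, and Tmed6, 1700003E16Rik and the unnamed contig, at -1.25 to -1.16, did not.

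Members made up 0.190% ± 0.00748 (SD, n = 3) of the counts of an RS dcat/dcat library and 0.0435% ± 0.00368 (SD, n = 3) of an ES dcat/dcat library. The 3 RS shares (0.186%, 0.184% and 0.198%) all lay above the 3 ES shares (0.0433%, 0.040% and 0.0473%). The difference had p = 0.1 in an exact permutation test (two-sided), the lowest value that 3 against 3 libraries can reach. In the wt/wt libraries that chose them, members held 0.210% ± 0.00984 (SD, n = 3) of RS and 0.0285% ± 0.00764 (SD, n = 3) of ES counts.

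A low member contig did not always go with a low gene. Of the 27 genes, 18 had other tested contigs, 35 in all. Of these contigs 15 were lower in ES dcat/dcat, beside 13.6% of all contigs tested and 25.5% of the 5105 with enough counts. Among the 35, 0 were higher and 34 had a negative change (35 with library totals). Their median was -1.06 (range -2.62 to 0.43), against -0.17 over all contigs. With counts summed by gene, 23 of 27 genes were lower against 21.1% of 6941 genes tested, with a median of -1.06 against -0.14. The other 4 were Dkkl1 (-0.33 ± 0.17, SE; edgeR q = 0.112), Fam45a (-0.68 ± 0.30, SE; edgeR q = 0.0648), Zbtb25 (-0.22 ± 0.38, SE; edgeR q = 0.655) and 1700003E16Rik, which passed as higher with TMM scaling (0.53 ± 0.18, SE; edgeR q = 0.0184) but turned negative with library totals (-0.32 ± 0.17, SE; edgeR q = 0.0889). With library totals 26 of 27 genes were lower, against 56.5% of all genes, and the median of all genes was -0.98.

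These genes, 1700003E16Rik among them, were singled out after their values were seen. The member contig of 1700003E16Rik (ENSMUST00000203203) made up 5.97% ± 2.48 (SD, n = 3) of the gene's counts in RS dcat/dcat and 1.87% ± 0.738 (SD, n = 3) in ES dcat/dcat. The main contig ENSMUST00000032106 had 364, 311 and 569 counts in RS dcat/dcat and 235, 189 and 394 in ES dcat/dcat, a change of 0.43 ± 0.18 (SE; edgeR q = 0.0845) after TMM scaling and of -0.26 ± 0.18 (SE; edgeR q = 0.243) with library totals. The Dkkl1 member likewise made up 4.20% ± 3.92 (SD, n = 3) of its gene's counts in RS dcat/dcat, and the other 2 contigs changed by -0.53 ± 0.23 (SE; edgeR q = 0.0896) and -0.09 ± 0.25 (SE; edgeR q = 0.812).

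Fam45a split more evenly. Its member had 56, 18 and 66 counts in RS dcat/dcat and 10, 5 and 12 in ES dcat/dcat, and the second contig ENSMUST00000119633 had 13, 13 and 26 and then 8, 4 and 12. The member's share of the gene went from 70.3% ± 11.6 (SD, n = 3) in RS to 53.7% ± 3.21 (SD, n = 3) in ES. The second contig changed by -0.06 ± 0.40 (SE; edgeR q = 0.917). Contigs of 1 gene share sequence, so a read can be assigned to a sister contig, and no test of the difference between contigs was run.

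In other genes some sister contigs passed as well. Morc2b's 2-exon contig changed by -1.16 ± 0.29 (SE; edgeR q = 0.0086). Pfkm's other contigs changed by -2.62 ± 0.88 (SE; edgeR q = 0.0371) and -1.68 ± 0.34 (SE; edgeR q = 0.0029), both estimates more negative than the member's. The first, ENSMUST00000051226, had 9, 10 and 8 counts in RS dcat/dcat and 0, 0 and 2 in ES dcat/dcat. Its ES counts lay under the floor of 3, so the size of its change is uncertain. For Zpbp2, ENSMUST00000081033 changed by -1.06 ± 0.34 (SE; edgeR q = 0.0292) and ENSMUST00000107511 by -0.81 ± 0.42 (SE; edgeR q = 0.15). Cenpu's other contig, annotated as a target of nonsense-mediated decay, changed by -1.04 ± 0.48 (SE; edgeR q = 0.111). Ash2l had 4 other contigs, of which 2 passed and 2 did not.

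**Figure D5:**
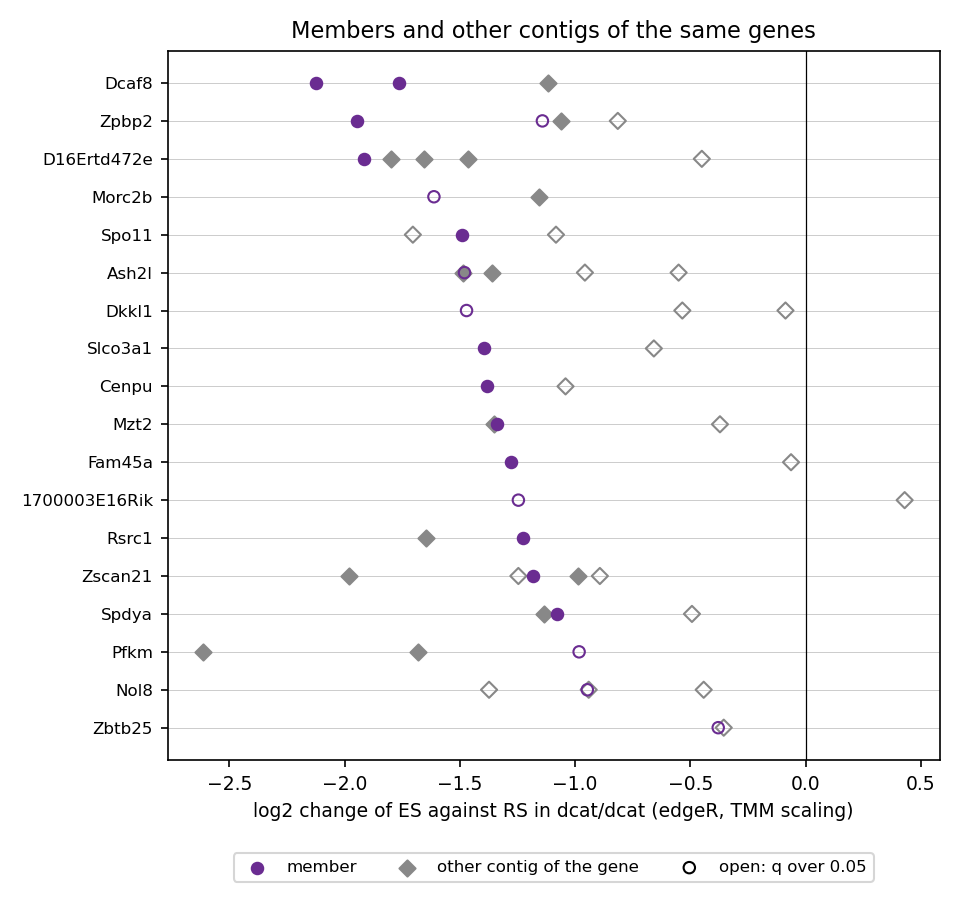
Fitted log2 change of ES against RS in dcat/dcat (edgeR, TMM scaling) for members (circles) and the 35 other tested contigs (diamonds) of the 18 genes that had any. Filled symbols have q at or under 0.05, and the only contig right of 0 is the main contig of 1700003E16Rik at 0.43, which library totals put at -0.26.

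Genotypes were compared within each stage in a fit of all 12 libraries. The share of all 11831 contigs that differed was 0% in RS and 0% in ES by edgeR, with 98 and 356 contigs at an unadjusted p under 0.05, and DESeq2 called 0 and 1. No member differed in either stage by either tool, and 0 and 2 members had an unadjusted p under 0.05. Members had a median dcat/dcat against wt/wt difference of -0.12 in RS and 0.58 in ES on the log2 scale, beside 0.01 and 0.01 over all contigs, and 29 of 31 were higher in ES dcat/dcat. Members were selected on high RS and low ES values in wt/wt, so these differences are a description and support nothing.

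Zbtb25 had the widest such gap, with 35.9, 40.8 and 35.3 CPM in RS wt/wt against 21.7 to 28.1 CPM in RS dcat/dcat, and 4.69, 2.87 and 0 CPM in ES wt/wt against 5.60 to 15.9 CPM in ES dcat/dcat. These are 5 counts in all in ES wt/wt. Gm3685 followed in ES at 1.78 ± 0.92 (SE; edgeR q = 1.0), and then Fam45a, with 4.69, 5.74 and 5.93 CPM in wt/wt and 17.5, 9.95 and 16.8 CPM in dcat/dcat, a difference of 1.40 ± 0.57 (SE; edgeR q = 1.0).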

How the data were processed

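Per the methods, reads were base-called with Guppy, aligned with minimap2 to GENCODE transcripts on mm10 and kept where Nanopolish rated the tail estimate as passing. The submitters' processing notes name minimap2 2.20-r1061. The deposited table held counts of reads per contig, not normalized, which the authors made per library. Deposited DESeq2 tables hold fold changes and p-values of the authors' own comparisons and were not used. Columns without a sample numbered 0.

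Members, gene lists and tests were chosen with earlier results of these data known. CPM were computed on library totals. Contigs with 10 reads in 2 replicates of a group were tested in edgeR 4.0.16 (R 4.3.3), by the quasi-likelihood test with TMM scaling and Benjamini-Hochberg adjustment, on the 6 dcat/dcat libraries for stage and on all 12 for genotype. DESeq2 1.42.0 was an alternative. Tests were run on simulated data first. P-values measure the spread between pools of 3 mice.

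The paper reports that cell types were isolated from the same mice and that each sorting session held 1 mouse of each genotype. The labels do not link libraries to mice or sessions. They number replicates 1 to 3. Deviations of same-numbered RS and ES dcat/dcat libraries correlated at 0.679, 0.504 and 0.500 over 3498 contigs, all above 0.1. Unmatched libraries 2 and 3 also correlated, at 0.252 and 0.266, and library 1 against 2 or 3 gave -0.52 to -0.493. In dcat/dcat the libraries numbered 1 were also those of the 5 that lack a set of contigs. A pair and that set cannot be fully told apart there. Matched values were the highest, and the numbers were taken to pair libraries in the dcat/dcat stage test. Between genotypes, same-numbered libraries 1, 2 and 3 correlated at 0.846, 0.598 and 0.72 in RS and at 0.741, 0.595 and 0.079 in ES. Between RS and ES wt/wt they gave 0.564, 0.604 and -0.257. Because the libraries numbered 3 did not pair throughout, the numbers were not taken to pair all 12 libraries.

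Named genes were the 12 members with most RS wt/wt counts, 6 with the most and 6 with the least negative dcat/dcat change, members in the lists (up to 4 each), 3 on each side of the threshold, and up to 4 whose gene had another contig that was not lower. Positions came from GENCODE vM21 (GRCm38), in which 11348 of 11517 transcript contigs were found. Copies were sought with blastn 2.17.0. Alternatives were other scalings, tools, filters and thresholds, and leaving out libraries.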

Additional observations from a re-analysis of the deposited data

Results flagged for a closer look

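Zbtb25, a zinc finger gene, stood out because every dcat/dcat library was below every wt/wt library in RS and above every one in ES. The genotype differences were -0.61 ± 0.35 (SE; edgeR q = 1.0) in RS and 1.86 ± 0.63 (SE; edgeR q = 1.0) in ES, on the log2 scale. The interaction of stage and genotype came to 2.47, and over all contigs 0 passed by edgeR after Benjamini-Hochberg adjustment. The wt/wt libraries chose this contig for a high RS and a low ES value, 28 of 31 members had an interaction of the same sign, and the ES wt/wt libraries held 5 counts of it in all. The cause was not tested.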

How the results depend on the processing

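The number of members depended on the rule: it was 285 at a threshold of -2, 6 at -3, 81 and 8 with count minimums of 50 and 200, 41 and 20 with pseudocounts of 0.5 and 2, 6 with TMM-scaled CPM, and 14 to 70 when 1 wt/wt library was left out (14 without RS wt/wt 3, 65, 70 and 58 without ES wt/wt 1, 2 and 3). Chosen after seeing the data, the 7 libraries alone gave 108 and the 5 alone 16. Members lower in dcat/dcat numbered 20, and 11 with DESeq2, 28 with library totals and 7 to 19 without 1 library. With at least 10 counts in every RS wt/wt library, 12 of 28 members were lower. Over all contigs, 1612 of 11831 became 1000 with DESeq2, 4742 with library totals and 2737 with the replicate block. That number was 721 to 1574 without 1 library, and 1106 of 8186 with the stricter filter of 10 counts. The median change of -1.34 became -2.02 with library totals, -1.10 with the stricter filter and -1.06 by gene. The median over all contigs was -0.17, and became -0.85 with library totals and -0.14 with the stricter filter. Over all genes it was -0.14. Members at or under -2.5 in dcat/dcat numbered 4, and 3 to 7 without 1 library. The share of the 5105 contigs there was 0.646% with all libraries. It is not given for the sets that left 1 out, so those member counts have no background. Zbtb25 changed sign without ES dcat/dcat 3 (0.088), in a range of -0.59 to 0.088 over the 6 left-out libraries, and the gene sum of 1700003E16Rik with library totals (-0.32, chosen after seeing the data). The replicate block called 30 members and changed no call between genotypes among members. For that comparison same-numbered libraries deviated together in RS, but in ES those numbered 3 did not (0.079). An ES library held 2.16 to 10.9 counts per member on average, which limits what single members show.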
